A study of Mus musculus with 3 samples.

Results

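The regions described here are the binding sites of TFAP2A that lie inside the introns of genes in a mouse melanocyte line and that were found in both replicates of the experiment. TFAP2A chromatin immunoprecipitation followed by sequencing (ChIP-seq) recovers the DNA that the transcription factor occupies, and a peak is a region where that DNA was enriched over background. A replicate 1 peak was taken when at least 1 bp of it overlapped a replicate 2 peak and when its summit, the position of highest signal, lay within a protein-coding gene of chromosomes 1 to 19, in no annotated exon and more than 1 kb from every transcription start site (TSS). This rule took 6327 peaks of the 15797 shared peaks on these chromosomes, 40.1% (95% exact binomial interval 39.3 to 40.8). Another 3054 shared peaks had their summit within 1 kb of a TSS, 6044 lay outside protein-coding genes and 372 lay in exons. Genes were those of the GENCODE M1 annotation of mouse build mm9.

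The series held 3 samples of melan-a, an immortalised melanocyte line from normal embryonic mouse skin with the genotype Cdkn2a tm1RDp/tm1RDp. Of these, 2, called replicates 1 and 2, were TFAP2A ChIP samples made with the AP-2alpha (3B5) antibody in independent experiments, and the third was input DNA, which was not analysed here. All cells were of this 1 line, carried the same Cdkn2a genotype, received no treatment, and grew in medium that contained a phorbol ester and cholera toxin. The deposited lists held 18528 peaks for replicate 1 and 21459 for replicate 2, each with a fold enrichment over background, and the number of reads behind them is unknown. Intervals given here cover only the counting error, since peaks of 2 libraries are not biological replicates. The files hold no RNA measurement, so neither the melanocyte identity of the cells nor the expression of any gene named here could be checked.

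TFAP2A is a member of the AP-2 family of transcription factors, which act in neural crest, skin and pigment cell development. AP-2 proteins bind as dimers to a GC-rich palindrome whose arms are GCC and GGC, separated by a short spacer. Introns are removed from the RNA after transcription, but their DNA can hold enhancers, stretches to which transcription factors bind and which act on the host gene or on another gene. The first intron of a transcript starts close to its TSS and is often long, whereas later introns lie further into the gene.

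Enrichment at the intronic peaks was similar in the replicates. Values ranged from 2.09 to 51.7 in replicate 1, with a median of 6.15, and in replicate 2 they ranged from 2.14 to 50.4, with a median of 6.74. Across the 6327 peaks Spearman's rank correlation was 0.838, a description over peaks that share the same libraries. Replicate 2 had the higher value at 57.5% of peaks, and 98.2% of peaks differed by less than 2-fold. The summits of a pair lay a median of 24 bp apart. By the replicate 2 summit, 6299 of the 6327 peaks (99.6%) were intronic too, 16 fell within 1 kb of a TSS and 12 in an exon. Of the peaks, 48 shared their replicate 2 partner with a neighbouring peak and so had the same replicate 2 value as it. The peaks had a median width of 453 bp.

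**Figure D1:**
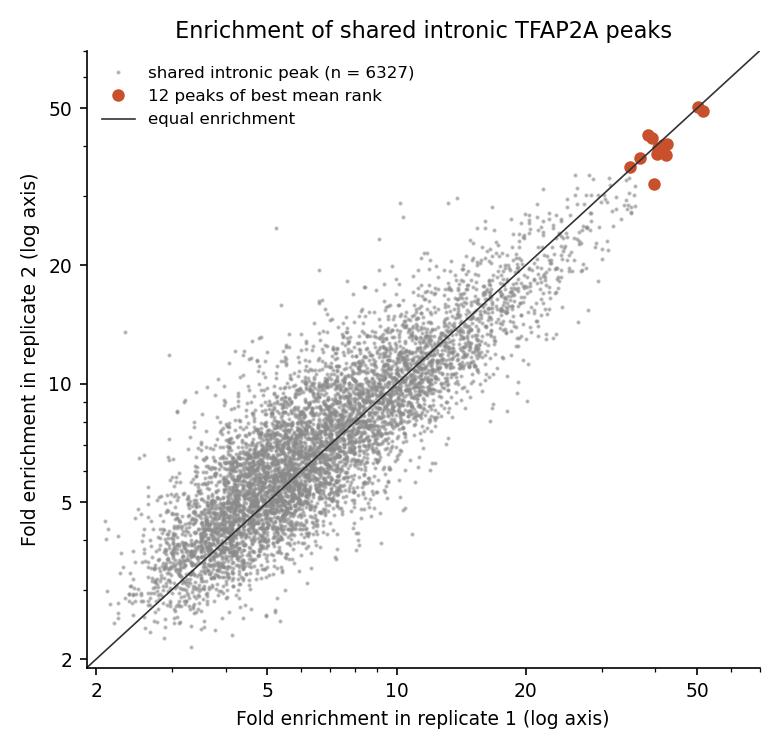
Fold enrichment of the 6327 shared intronic peaks in replicate 1 (x axis) and replicate 2 (y axis), both on log axes. Each grey point is a peak, the line marks equal values, and the 12 peaks with the best mean rank (red) all have more than 30-fold enrichment in both replicates.

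Enrichment over 20 in both replicates was reached by 121 intronic peaks, and enrichment over 30 by 20. The strongest were ranked by the mean of their ranks in both replicates, and the enrichment that ranks them is given as a description. The first was in intron 14 of Taf4b, which encodes a subunit of the general transcription factor TFIID, with an enrichment of 51.7 in replicate 1 and 49.2 in replicate 2. The next was in intron 14 of Prkg2, a cGMP-dependent protein kinase, with 50.2 and 50.4. Both had nearly the same value in either library. Cdh10, a cadherin of cell-cell junctions, held a peak of 42.5 and 40.6 in intron 2, its only shared intronic peak. Ndst4, an enzyme that modifies heparan sulphate, likewise held a single peak, in intron 6, with 41.6 and 40.4. Neither gene had a shared peak within 1 kb of a TSS.

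Alcam, an adhesion molecule of the immunoglobulin family, held 2 of these 12 peaks, both in its first intron. They had 39.4 and 42.0 at 134.7 kb from the gene's start, and 40.5 and 39.6 at 61.8 kb. Macrod2, a hydrolase of ADP-ribose, held a peak of 42.4 and 38.0 in intron 6. Akap13, an anchoring protein of protein kinase A, held one of 38.6 and 42.8 in intron 8. Pam, which amidates secreted peptides, held one of 40.3 and 38.4 in its first intron. Slc35f1, of the solute carrier superfamily, held one of 36.9 and 37.4 in intron 2. In Actr3, which encodes a subunit of the actin-nucleating Arp complex, the first-intron peak had 39.7 in replicate 1 and 32.1 in replicate 2, the widest gap between the libraries among the 12. Rarb, a receptor for retinoic acid, held a peak of 34.9 and 35.5 in intron 8. Of the 12 peaks, 4 lay in first introns (2 in Alcam, 1 each in Pam and Actr3) and 8 in later ones.

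The summit sequences of the strongest peaks show how the TFAP2 consensus sits in introns. Each is the 50 bp to either side of the replicate 1 summit on the plus strand of mm9, 5′ to 3′. Capitals mark the string GCCNNNGG on either strand, the TFAP2 consensus counted here. The following 7 peaks held it.
Cdh10 intron 2, chr15:18855464-18855564: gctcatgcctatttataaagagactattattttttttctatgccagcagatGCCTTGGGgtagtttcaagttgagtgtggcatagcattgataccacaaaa
Ndst4 intron 6, chr3:125362172-125362272: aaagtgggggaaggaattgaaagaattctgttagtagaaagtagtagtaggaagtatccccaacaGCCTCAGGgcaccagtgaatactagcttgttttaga
Alcam intron 1, chr16:52319459-52319559: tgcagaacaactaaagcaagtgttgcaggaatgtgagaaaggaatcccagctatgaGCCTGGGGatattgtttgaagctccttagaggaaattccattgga
Macrod2 intron 6, chr2:141371700-141371800: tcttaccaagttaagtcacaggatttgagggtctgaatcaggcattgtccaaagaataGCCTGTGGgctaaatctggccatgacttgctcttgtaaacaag
Akap13 intron 8, chr7:82795069-82795169: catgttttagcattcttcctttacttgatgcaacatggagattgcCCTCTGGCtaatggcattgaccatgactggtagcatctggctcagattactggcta
Pam intron 1, chr1:99939130-99939230: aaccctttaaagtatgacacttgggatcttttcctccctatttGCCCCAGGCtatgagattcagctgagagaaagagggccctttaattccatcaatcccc
Actr3 intron 1, chr1:127325004-127325104: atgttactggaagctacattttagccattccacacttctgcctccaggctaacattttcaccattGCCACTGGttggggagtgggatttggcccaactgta
The site lay within 20 bp of the summit in all 7. In Pam, the capitals run over 9 bases because the full palindrome GCCNNNGGC reads as a site on both strands.

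Another 4 of the strongest peaks had no match to that string within 50 bp of the summit.
Prkg2 intron 14, chr5:99379947-99380047: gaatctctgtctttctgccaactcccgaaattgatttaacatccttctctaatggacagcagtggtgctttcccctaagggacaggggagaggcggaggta
Alcam intron 1, chr16:52392318-52392418: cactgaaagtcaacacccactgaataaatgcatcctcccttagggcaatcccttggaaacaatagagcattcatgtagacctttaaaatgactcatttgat
Slc35f1 intron 2, chr10:52654600-52654700: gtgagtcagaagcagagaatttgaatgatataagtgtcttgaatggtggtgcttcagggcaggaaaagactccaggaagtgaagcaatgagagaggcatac
Rarb intron 8, chr14:17265904-17266004: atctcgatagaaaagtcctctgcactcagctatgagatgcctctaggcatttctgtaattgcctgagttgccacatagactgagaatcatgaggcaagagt
The Alcam and Slc35f1 windows each held TGASTCA (S is C or G), the site of the AP-1 dimers of FOS and JUN proteins. These peaks had enrichments of 40.0 ± 0.646 and 37.1 ± 0.360 (mean ± SD, n = 2). Variants of the TFAP2 consensus were present in 3 of the 4 windows: CCCNNNGGG in those of Alcam and Prkg2, and GCCNNNNGG, with a spacer longer by 1 base, in those of Alcam and Rarb. The Slc35f1 window held neither variant. The Taf4b sequence, with 2 matches to the consensus, is not printed.

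Of all 6327 intronic peaks, 3475 held the consensus within 50 bp of the summit, 54.9% (53.7 to 56.2). Flanking windows of equal length, centred 400 bp away on either side, held it in 13.0%, so the summits had a 4.23-fold excess. In 3003 peaks the summit held the site and the left flank did not, and the reverse was true of 339 (2993 and 350 for the right flank). The exact two-sided McNemar test for the flank with the larger p-value gave p = 1.4e-521. In the separate lists 53.3% of replicate 1 and 56.2% of replicate 2 intronic peaks held the site. The full palindrome GCCNNNGGC was in 17.8% of summits and 2.20% of flanks, an 8.07-fold excess (exact McNemar p = 1.0e-198). Sites were densest at the summit itself, with 26.9 sites per 100 peaks in the central 20 bp against 3.79 and 3.999 in the bins at 280 bp to either side.

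The spacer between the palindrome's arms was varied from 0 to 7 bases, a series chosen after the data were seen and given without a test. With 3 bases the excess of summits over flanks was 8.07-fold. With 4 bases it was 10.4-fold (16.6% of summits, 1.59% of flanks), and with 5 bases 4.86-fold (7.44% and 1.53%). Every other spacer length had an excess between 1.02-fold and 1.82-fold. The 3 spacer lengths with the larger excess are thus neighbours, and 1 window can hold more than 1 of them. Among the 2852 peaks without GCCNNNGG, 1008 (35.3%) held GCCNNNNGG against 11.03% of their flanks, and 468 (16.4%) held CCCNNNGGG against 1.54%.

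**Figure D2:**
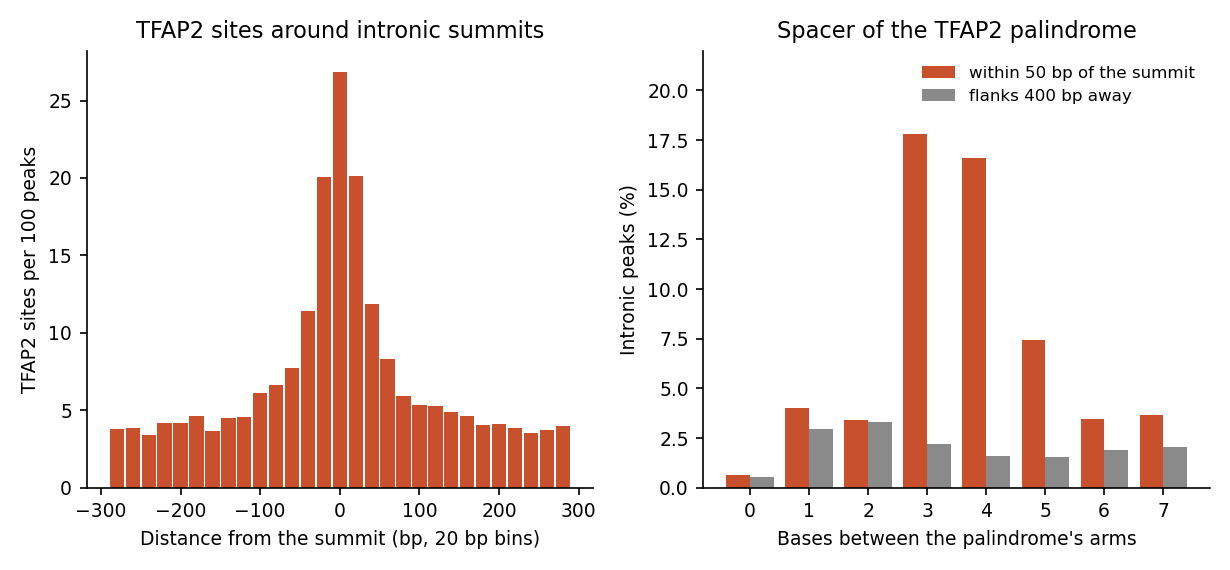
Left, TFAP2 consensus sites per 100 intronic peaks (y axis) in bins of 20 bp by distance from the summit (x axis), highest at 26.9 in the central bin. Right, share of intronic peaks (y axis, percent) that hold the palindrome's arms with 0 to 7 bases between them (x axis) within 50 bp of the summit (red) and in flanks 400 bp away (grey), with 17.8% and 16.6% of summits at spacers of 3 and 4.

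The share of peaks with the consensus was higher at strong peaks. When the intronic peaks were ordered by enrichment and divided into 10 equal parts, the weakest part held it in 48.8% (44.9 to 52.8) and the strongest in 62.1% (58.2 to 65.9). Flanks went the other way, from 18.2% around the weakest to 9.56% around the strongest peaks. The median GC content of the summit windows was 53.5% in the weakest and 46.5% in the strongest part, and the share of peaks in first introns was 44.4% and 31.4%.

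Intronic peaks were compared with the other shared peaks for this consensus with a two-sided Fisher's exact test, and p-values were adjusted over 3 comparisons by the Benjamini-Hochberg method. Peaks within 1 kb of a TSS held it in 66.7% (64.96 to 68.3), 11.7 percentage points more than intronic peaks (adjusted exact p = 3.7e-27). Flanks held it in 25.6% around TSS peaks and 13.0% around intronic peaks. The excess over flanks was 41.9 points at intronic and 41.1 points at TSS peaks. Peaks outside genes held it in 54.4% (53.2 to 55.7), a difference from intronic peaks of 0.489 points that did not pass the test (adjusted exact p = 0.88).

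Sites of other factors were counted in the same windows, with exact two-sided McNemar tests adjusted over 6 strings. AP-1 sites (TGASTCA) were in 6.45% of intronic summits (5.86 to 7.08) and 1.83% of flanks, a 3.53-fold excess (adjusted exact p = 1.6e-38). GGAATG, the site of the TEAD factors of the Hippo pathway, was in 11.1% (10.3 to 11.9) against 5.38% (adjusted exact p = 1.2e-29). ACAAWGG (W is A or T), a SOX site, was in 5.96% (5.39 to 6.57) against 3.47% (adjusted exact p = 4.4e-09). All 3 excesses were below that of the TFAP2 consensus. For TCATGTG, the M-box to which the melanocyte regulator MITF binds, the values were 2.35% and 1.88% (adjusted exact p = 0.16). The E-box CACGTG was in 1.64% and 1.42% (adjusted exact p = 0.94). The control string CGGNNNCG, which also fixes 5 bases around a gap but contains CpG, was in 1.22% and 0.830% (adjusted exact p = 0.2). With 100 bp to each side the M-box excess passed the test (1.10 points, adjusted exact p = 0.0064). In all replicate 2 peaks, shared or not, the M-box (0.916 points, adjusted exact p = 0.0015) and the control (0.577 points, adjusted exact p = 0.0018) both passed it.

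Where in the introns the peaks lie was read against the amount of sequence that the rule admits, which is 823.5 Mb. The density was 7.68 peaks per Mb (7.49 to 7.87) in introns and 4.28 (4.18 to 4.39) outside protein-coding genes, a ratio of 1.79 (1.73 to 1.86). The ratio was 1.78 ± 0.00690 in the separate lists (mean ± SD, n = 2). Intron sequence lies closer to a TSS on average than sequence outside genes, so densities were also given at matched distances. Introns then had 1.32 times the density outside genes at 1 to 5 kb (1.22 to 1.43), 1.28 times at 5 to 10 kb (1.16 to 1.399), 1.43 times at 10 to 20 kb (1.31 to 1.55) and 1.57 times at 20 to 50 kb (1.46 to 1.69). Between 50 and 100 kb the ratio was 1.63 (1.47 to 1.80), and beyond 100 kb 1.60 (1.39 to 1.83). Introns had the higher density in every class of distance. Only assembly gaps were left out of the sequence, and how much of the rest reads could be mapped to was not measured.

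First introns held 2376 of the intronic peaks, 37.6% (36.4 to 38.8), in 26.2% of the admitted intron sequence. Intron number was read in the longest transcript of a protein-coding gene over the summit, whatever the type of the transcript. The density was 11.02 peaks per Mb (10.6 to 11.5) in first introns and 6.50 (6.30 to 6.71) in later introns, which held 3951 peaks, a ratio of 1.70 (1.61 to 1.78). It was 1.68 ± 0.0235 in the separate lists (mean ± SD, n = 2). All 70 peaks in the 4435 kb gene model Gm20388, described below, counted as first-intron peaks, also where they lay in introns of other genes. Without transcripts over 2500 kb, an alternative added after the data were seen, the ratio was 1.68. Density fell with intron number, from 11.02 in the first intron to 8.25 (7.76 to 8.75) in the second and 7.07 (6.53 to 7.64) in the third. The fourth had 6.25 (5.64 to 6.91) and the fifth 6.10 (5.41 to 6.85), values that overlap, and introns past the tenth had 5.22 (4.85 to 5.60).

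The difference between first and later introns depended on the distance from the nearest TSS. At 1 to 5 kb first introns had 14.6 peaks per Mb (13.6 to 15.7) and later introns 7.52 (6.97 to 8.09), a ratio of 1.94 (1.76 to 2.15). The ratio was 1.82 (1.61 to 2.06) at 5 to 10 kb, 1.50 (1.33 to 1.68) at 10 to 20 kb and 1.37 (1.23 to 1.54) at 20 to 50 kb. Between 50 and 100 kb it was 1.05 (0.862 to 1.27) and beyond 100 kb 1.03 (0.720 to 1.44), intervals that include equal densities. Had first introns had the density of later introns in each class of distance, they would hold 1484 peaks, and the observed 2376 were 1.60 times that number. Later introns close to a TSS had nearly the density of sequence outside genes, 7.52 against 7.67 (7.19 to 8.18) at 1 to 5 kb and 6.83 (6.28 to 7.41) against 6.73 (6.29 to 7.20) at 5 to 10 kb. Further away they had more, with 7.19 (6.77 to 7.64) against 4.98 (4.72 to 5.24) at 20 to 50 kb.

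**Figure D3:**
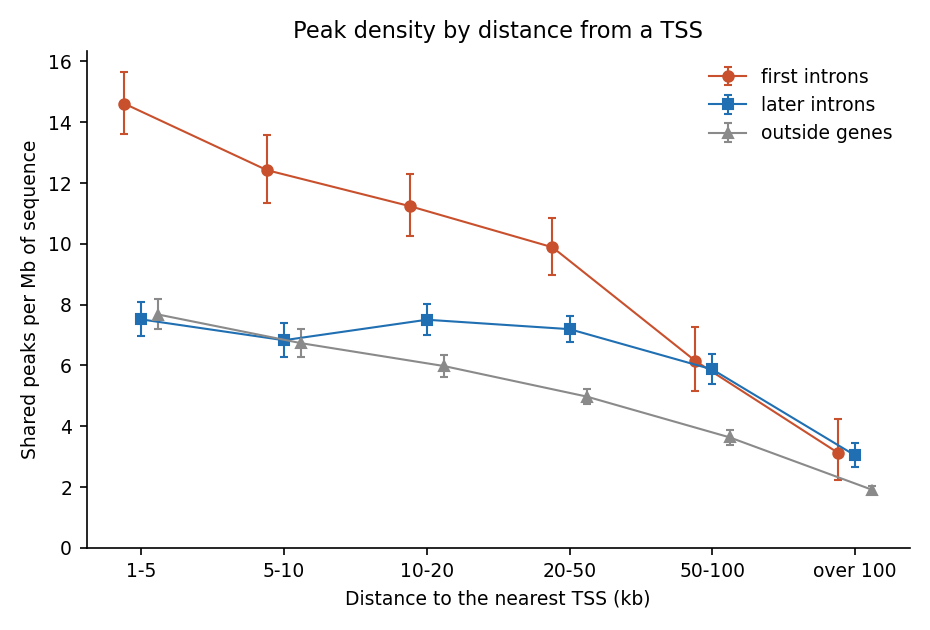
Shared peaks per Mb of admitted sequence (y axis) by distance to the nearest TSS in kb (x axis) in first introns (red), later introns (blue) and outside protein-coding genes (grey), with exact Poisson 95% intervals as bars. First introns fall from 14.6 to 3.12, later introns stay between 6.83 and 7.52 up to 50 kb, and sequence outside genes falls from 7.67 to 1.91.

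Over all distances, peaks in first introns had the lower median enrichment. Their median enrichment was 5.90 in replicate 1 and 6.54 in replicate 2, against 6.36 and 6.86 in later introns. At matched distances this was not so throughout. At 1 to 5 kb from a TSS the medians were 5.46 and 6.13 in first and 5.80 and 6.26 in later introns, but at 20 to 50 kb they were 6.51 and 7.04 in first and 6.40 and 6.93 in later introns, and at 50 to 100 kb 6.67 and 7.49 against 6.63 and 7.26. Beyond 100 kb the 41 first-intron peaks had 5.91 and 5.18, and the 246 later-intron peaks 6.89 and 7.99. The TFAP2 consensus was in 54.8% of first-intron peaks (52.8 to 56.8) and 55.0% of later-intron peaks (53.4 to 56.6), a difference of -0.201 points that did not pass the test (Fisher's exact test, adjusted exact p = 0.9). With the full palindrome the difference was 2.30 points in favour of first introns and passed it (adjusted exact p = 0.032). The consensus was in 57.6% of intronic peaks at 1 to 5 kb and in 45.3% beyond 100 kb, while flanks held it in 15.6% and 11.1%.

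Density also differed with the length of the intron. First introns under 5 kb had 13.3 peaks per Mb (10.97 to 16.0), those of 5 to 20 kb had 14.6 (13.4 to 15.8), and those over 100 kb had 6.13 (5.58 to 6.71). The last class includes the 70 peaks in the 4384 kb first intron of the Gm20388 model. Later introns under 5 kb had 5.25 (4.90 to 5.63), those of 20 to 50 kb had 8.45 (7.90 to 9.03), and those over 100 kb had 4.34 (3.97 to 4.74). In both classes introns over 100 kb had the lowest density. Along an intron there was little trend, with 11.3, 11.3 and 10.4 peaks per Mb in the upstream, middle and downstream parts of first introns and 6.16, 6.85 and 6.48 in those of later introns. Just inside the 1 kb limit of the rule, 145 members lay 1 to 1.2 kb from a TSS, with median enrichments of 4.80 and 5.57. Just outside it, 159 shared peaks within a gene and outside exons lay 0.8 to 1 kb from a TSS, with medians of 5.30 and 5.55.

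Peaks were spread over many host genes. Of 17711 protein-coding genes with intron sequence that the rule admits, 3155 hosted at least 1 peak, 17.8% of all genes tested. A single peak was found in 1855 hosts, 2 to 4 peaks in 1032, 5 to 9 in 224 and 10 or more in 44. The 268 genes with at least 5 peaks were 1.51% of all genes tested and held 30.6% of the peak and host pairs. In all, 148 peaks lay in more than 1 gene and were counted for each. Consecutive peaks of a gene lay a median of 15.6 kb apart, and 24.1% of them lay within 5 kb of each other.

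Host genes were long, with a median length of 76.1 kb against 17.1 kb for the other genes. When genes were divided into 10 equal groups by length, the share of hosts rose from 1.02% (0.603 to 1.60) of the shortest to 57.8% (55.5 to 60.1) of the longest. Per Mb of intron the groups differed much less. The group of 66.1 to 121.0 kb had 9.99 peaks per Mb (9.47 to 10.5), and the longest genes, from 121.1 kb up, had 6.61 (6.38 to 6.84). Density in the shortest genes was 9.35 (5.54 to 14.8) and rested on 18 peaks. The longest genes had 0.707 times the density of the shortest, but 1.71 times when only the upper 50% of each list by enrichment was used and 1.87 times when peaks within 5 kb of a TSS were left out, so the order of these 2 groups is not settled by the data.

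**Figure D4:**
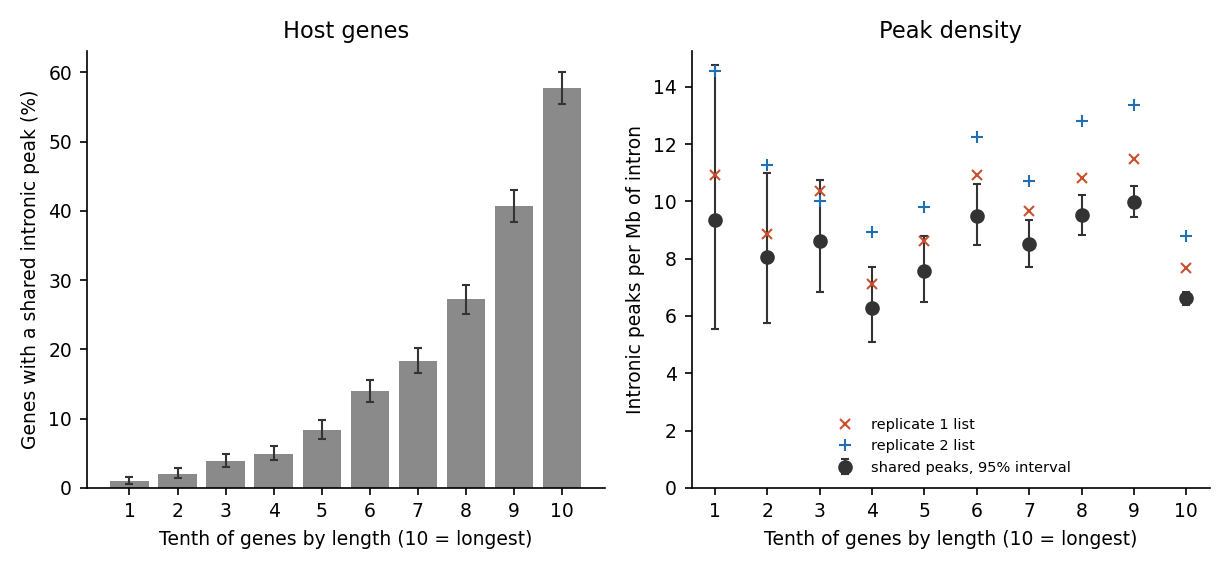
Left, share of protein-coding genes with a shared intronic peak (y axis, percent, exact binomial 95% intervals) in 10 groups of genes by length (x axis), rising from 1.02% to 57.8%. Right, intronic peaks per Mb of admitted intron (y axis) in the same groups, with exact Poisson 95% intervals for shared peaks (black) and the values of each replicate's own list (crosses), which run from 6.29 to 9.99 for shared peaks.

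Hosts of intronic peaks also had a peak at a TSS more often. A shared peak within 1 kb of one of the gene's own TSSs was found in 25.9% of hosts (24.4 to 27.5) and in 12.8% of the other genes (12.2 to 13.3). It was found in 42.2% (36.2 to 48.3) of hosts with at least 5 intronic peaks. Within the 10 groups by length the share was higher in hosts each time, but by different amounts. In the longest genes it was 26.5% (23.8 to 29.3) of hosts and 7.10% (5.36 to 9.18) of the others, and in genes of 66.1 to 121.0 kb 27.0% (23.8 to 30.4) and 15.4% (13.3 to 17.8). In genes of 11.3 to 15.7 kb it was 23.0% (14.6 to 33.2) and 13.8% (12.2 to 15.5), intervals that overlap.

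The genes with the most peaks were partly a matter of the annotation. Gm20388 came first with 70 peaks, but its model spans 4435 kb and 72 other genes, and 49 of its peaks had no other host. Fgfr2, a receptor for fibroblast growth factors, came next with 29 peaks through 1 transcript of 3009 kb, whereas its longest other transcript spans 103.7 kb. That model spans 31 other genes, and 8 of the 29 peaks had no other host. Both counts describe the regions that these models cover. Without transcripts over 2500 kb, an alternative added after the data were seen, 39.7% of shared peaks were intronic. The windows around the strongest peak in each model are shown to place these regions, in the same format as above.
Gm20388, chr8:125255071-125255171: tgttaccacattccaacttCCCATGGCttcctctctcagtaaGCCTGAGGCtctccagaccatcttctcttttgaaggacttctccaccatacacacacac
Fgfr2, chr7:137810418-137810518: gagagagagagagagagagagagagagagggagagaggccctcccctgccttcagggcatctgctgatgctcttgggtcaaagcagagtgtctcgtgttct
The Gm20388 peak had an enrichment of 16.5 and 16.8 and held 3 matches to the consensus. The Fgfr2 peak, which also lies in Tacc2, had 10.3 and 16.3 and held none.

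Slc35f1 was the gene with the most peaks among models of ordinary length, with 20 peaks in 421.1 kb. Of these, 13 lay in its first intron and 8 held the TFAP2 consensus. Enrichment ran from 3.57 to 36.9 in replicate 1, with a median of 5.80, and in replicate 2 it ran from 4.17 to 37.4, with a median of 6.96. The peaks thus included 1 of the strongest in the data, while the medians were close to those of all intronic peaks. From the strongest peak, at 244.3 kb from the gene's start, another 3 followed within 6 kb, at 245.2, 246.1 and 250.2 kb.

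After Slc35f1 came hosts with 12 to 17 peaks. Ptprm, a receptor-type tyrosine phosphatase, held 17 peaks, with enrichments of 2.46 to 19.2 in replicate 1 and 3.22 to 19.8 in replicate 2. Rbms3, an RNA-binding protein, and Pde4d, a phosphodiesterase that degrades cAMP, held 17 each. Bcas3 held 16 and Atxn1, which encodes the polyglutamine protein ataxin, 15. Fmnl2, a formin that elongates actin filaments, and Nrcam, a neuronal adhesion molecule, held 14 each. In Fmnl2, 11 of the 14 peaks lay in the first intron, as did 10 of the 13 of Stard13. In Bcas3, Atxn1 and Lhfp none did. Lhfp, Ctif and the formin gene Fmn1 held 13 each, and Nrp2 held 12.

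Per length, other genes led. Among the hosts with at least 5 peaks, Lasp1, an actin-binding LIM protein, had the highest density with 5 peaks or 19.7 per 100 kb of admitted intron, at enrichments of 3.42 to 17.5 in replicate 1 and 3.98 to 16.7 in replicate 2. Ralgds, which activates Ral GTPases, had 19.6 per 100 kb and Cspg4, the NG2 proteoglycan, 19.3, both with 5 peaks that all lay in the first intron. Cxxc5 (17.4) and Pxn (15.9), the gene of the focal adhesion protein paxillin, likewise had 5 first-intron peaks each. Ahnak had 9 peaks or 13.7 per 100 kb, Synpo, an actin-associated protein, 12.8, Actn4, an alpha-actinin that crosslinks actin, 12.6, Morn1 11.8 and Dagla, a lipase that makes an endocannabinoid, 11.7. These genes are 31.9 to 87.7 kb long, so a few peaks suffice for such densities.

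Nrp2 and Alcam show how differently peaks can be arranged. Nrp2, a receptor for semaphorins and VEGF, held 12 peaks in 115.4 kb, all within 49.6 kb of its start and 7 of them in the first intron. Their enrichment was 2.63 to 7.74 in replicate 1, with a median of 4.91, and 2.75 to 9.34 in replicate 2, with a median of 4.21, below the medians of 6.15 and 6.74 over all intronic peaks. Alcam held 6 peaks in 205.1 kb, 5 of them in the first intron, and 3 were strong. Beside the pair shown above, the peak at 131.4 kb from its start had 19.9 in replicate 1 and 27.0 in replicate 2. The others were at 25.4 kb with 12.2 and 12.3, at 35.9 kb with 7.90 and 10.7, and in intron 6 with 4.40 and 5.44. The lowest Alcam peak was thus close to the median Nrp2 peak.

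**Figure D5:**
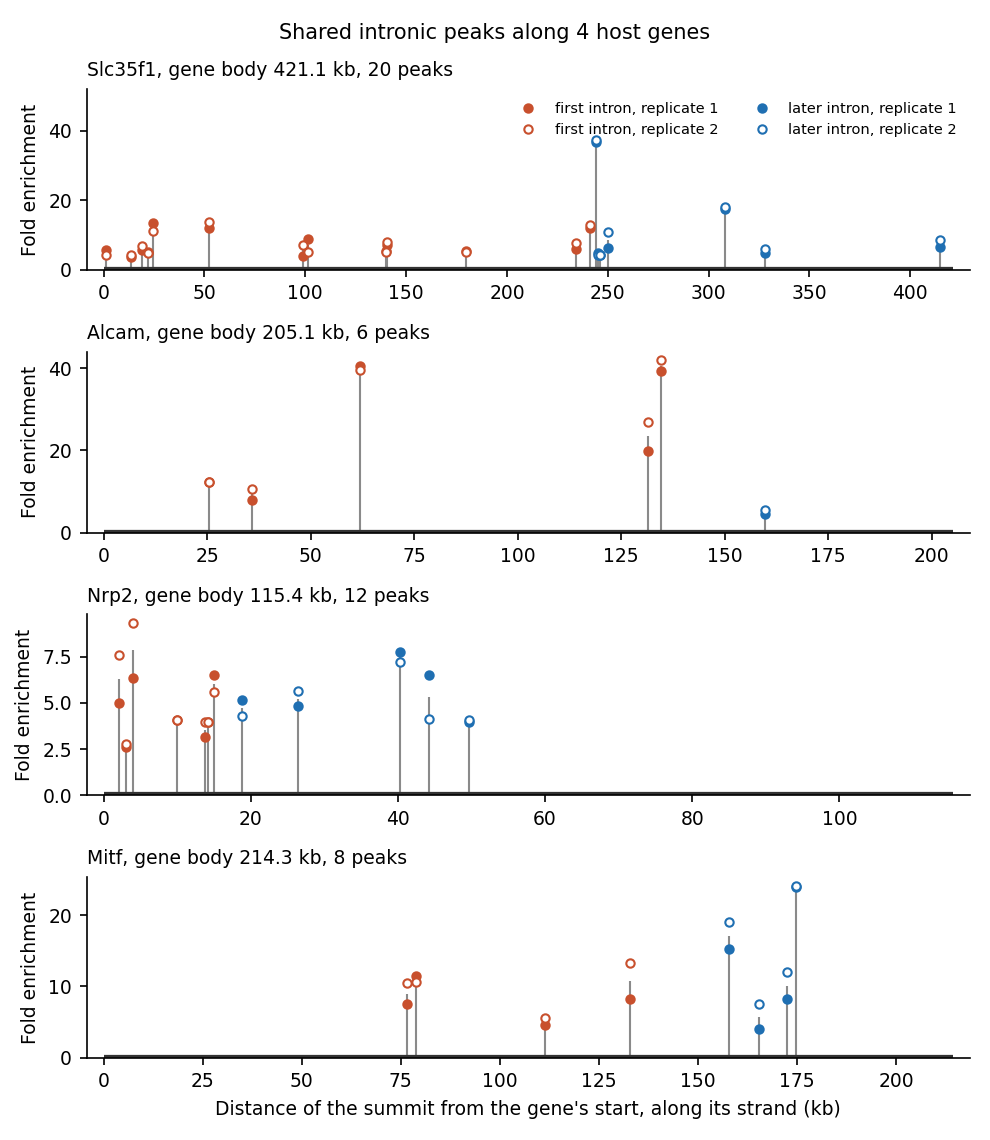
Shared intronic peaks along Slc35f1, Alcam, Nrp2 and Mitf, by distance of the summit from the gene's start in kb (x axis) and fold enrichment (y axis, scales differ between genes) in replicate 1 (filled) and replicate 2 (open), with grey stems at the mean. Red marks first and blue later introns, and the 12 Nrp2 peaks lie in the first 49.6 kb while the 8 Mitf peaks lie from 76.7 kb on.

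Genes were then described by 6 lists of known function, each set beside all 17711 genes, of which 17.8% were hosts, with a median of 0 peaks and 7.73 peaks per Mb. The lists were chosen with earlier results of these data known, so their values describe the listed genes only and are no test. Of the transcription factors of neural crest and melanocytes, 10 of 17 were hosts, with a median of 2 peaks and 16.0 peaks per Mb (12.0 to 20.9). Mitf, the main regulator of melanocyte genes, held 8 peaks, of which 4 lay in the first intron of its longest transcript. The strongest, in intron 2, had an enrichment of 23.9 in replicate 1 and 24.1 in replicate 2 and 2 TFAP2 sites. It lay 174.6 kb from the gene's start but 10119 bp from the nearest TSS, and the intron numbers hold for the longest transcript only. Another in intron 2 had 15.2 and 19.01, and the other 6 peaks were between 4.05 and 13.2 in either library.

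Ets1 and Sox6 also held 8 peaks each, Sox5 held 7, Pax3 6, and Meis2 and Tcf4 5 each. Pax3, which acts upstream of Mitf, had its strongest peak in intron 4 with 11.9 and 16.2. No shared intronic peak was found in Sox10, Tfap2a, Tfap2b, Sox9, Lef1, Snai2 or Meis1. Sox10 and Tfap2b had 1 intronic peak each in the replicate 2 list that was not shared. Zeb2, Tcf7l2 and Nfib held 2 each. The listed genes with admitted intron differ in length, from 3.54 kb for Snai2 to 954 kb for Sox5, and 6 of them (Sox10, Tfap2a, Lef1, Ets1, Sox6 and Tcf4) had a shared peak within 1 kb of a TSS.

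Of the genes of pigment production and transport, 10 of 18 were hosts, with a median of 1 peak and 14.4 peaks per Mb (9.12 to 21.6), and none held 5 or more. The density was 16.9 in the replicate 1 list and 21.9 in the replicate 2 list, against 8.89 and 10.3 over all genes. All genes of 42.8 to 66.1 kb, the group around the list's median length of 57.0 kb, had 9.51 shared peaks per Mb (8.84 to 10.2), a value inside the list's interval. The most peaks, 4 each, were in Lyst and Rab38, followed by 3 each in Oca2 and Bnc2 and 2 each in Mlph, Trpm1 and Myo5a. Enrichment over 20 in both replicates was reached by 1 peak each in Lyst, Mlph and Myo5a. Lyst, a regulator of lysosome-related organelles, had its strongest peak, of 28.6 in replicate 1 and 33.1 in replicate 2, in its first intron, 1622 bp from the nearest TSS. Mlph, which links melanosomes to the motor myosin Va, had one of 26.5 and 24.3, and Myo5a, which encodes that motor, one of 24.2 and 22.4, also in first introns. The strongest Rab38 peak had 16.0 and 24.8, where the replicate 2 value belongs to a peak that spans 2 replicate 1 peaks. Only the Lyst peak of these 4 held the TFAP2 consensus.

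The other hosts of the pigment list had lower values. Slc45a2, a melanosomal transporter, had a single peak with 14.6 and 15.4, Mlana one with 9.66 and 10.9, and Tyrp1, a melanogenic enzyme, one with 6.61 and 6.92. The strongest in Oca2 had 3.60 and 6.19, that in Trpm1 5.07 and 6.94, and that in Bnc2 6.95 and 5.59. Tyr, Dct, Pmel, Slc24a4, Slc24a5, Rab27a, Kit and Ednrb had no shared intronic peak. Of these, Dct and Rab27a had a shared peak within 1 kb of a TSS. So did the hosts Oca2, Myo5a, Mlana, Tyrp1 and Slc45a2. Kit had 2 intronic peaks in the replicate 2 list, Ednrb 1 in that list, Tyr 1 in the replicate 1 list and Slc24a4 1 in each, none of them shared.

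Of the axon guidance genes, 15 of 24 were hosts, with a median of 2 peaks and 9.04 peaks per Mb (7.10 to 11.4). The neuropilins Nrp2 and Nrp1 held 12 and 10 peaks, and the plexins Plxna2 and Plxna4 held 8 and 3. Of the semaphorins, Sema3c held 8, Sema3d 6, Sema6d 4, Sema6a 3, Sema5a 2 and Sema3a 1. The strongest was in intron 7 of Sema3c, with 35.9 and 28.2. The ephrin receptor Ephb2 held 3 peaks, and Epha3, Epha4, Epha5, Epha7 and Ephb1 held none in the shared set or in either replicate's own list, as did the Slit receptors Robo1 and Robo2. The netrin receptor Unc5c held 6, its relative Unc5d none and Dcc 2, while the ligands Slit3, Ntn1 and Slit2 held 5, 1 and none. Slit2 had 2 intronic peaks in the replicate 2 list and Unc5d 1 in the replicate 1 list, none of them shared.

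Cell adhesion genes were hosts in 13 of 20 cases, with a median of 1 peak and 5.40 peaks per Mb (4.12 to 6.96). The density was 6.84 in the replicate 1 list and 8.29 in the replicate 2 list, against 8.89 and 10.3 over all genes. Ntm alone had 2 intronic peaks in the replicate 1 list and 14 in the replicate 2 list. Nrcam held 14 peaks, the strongest with 35.2 and 27.2 in the first intron, and Cadm1, an immunoglobulin adhesion molecule, held 10, all in its first intron. Kirrel3 held 9, Cdh2 6, Alcam 6 and Ncam1 5. Cadm2, Ntm and Opcml held 2 each, and Cdh10, Cdh4, Cntn4 and Cdh13 held 1 each. Ncam2, Chl1, Cntn1, Cntn5, Cdh11, Lsamp and Negr1 had no shared intronic peak, though the replicate 2 list had 1 in Cntn1 and 4 in Negr1. Of the cyclic nucleotide genes, 12 of 16 were hosts, with a median of 1 and 6.49 per Mb (4.62 to 8.87), and 24 of the 39 peaks lay in Pde4d and Pde4b. Prkg1 held a single peak, with 25.3 and 26.7. Densities of these groups had intervals that include or lie below that of all genes.

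Very long neuronal genes stood at the other end. Although 12 of 20 were hosts, they had a median of 1 peak and 1.25 peaks per Mb (0.852 to 1.76), against 7.73 over all genes and 6.61 in the longest genes. These groups are not matched for length, since the listed genes had a median of 1137 kb and the longest genes start at 121.1 kb. Over all genes, intron sequence more than 100 kb from a TSS had 3.05 peaks per Mb (2.71 to 3.42). Later introns over 100 kb had 4.34. How much of the low density goes with length was not tested. Ptprd, a receptor phosphatase, held 1 peak in 2271 kb, Cntnap2, an adhesion molecule of axons, 2 in 2241 kb, and Lrp1b, a lipoprotein receptor, none in 2058 kb, also in either replicate's own list. Dlgap1, a scaffold protein of synapses, held 8, with 30.9 and 23.0 at the strongest. The share of hosts was 55.6% to 75% in the 6 lists, whose genes differ in length. The pigment list, with a median length of 57.0 kb, had 55.6% hosts (30.8 to 78.5), against 27.2% of all genes of 42.8 to 66.1 kb. The other lists had median lengths of 133.8 to 1137 kb and 58.8% to 75% hosts, against 57.8% of all genes from 121.1 kb up. Whether expression of the genes or openness of their chromatin goes with these densities was not tested.

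Density differed between chromosomes. It was lowest on chromosome 14, with 6.16 intronic peaks per Mb (5.44 to 6.96), and highest on chromosome 11, with 8.94 (8.09 to 9.85). Other chromosomes had intervals that overlap that of chromosome 14, among them 13 (5.57 to 7.26) and 6 (5.79 to 7.17). In the replicate 2 list chromosome 6 was the lowest, with 7.95 against 8.30 on chromosome 14.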

How the data were processed

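Melan-a chromatin was precipitated for TFAP2A in 2 replicates, and the authors deposited 1 peak list per replicate. The submitters' processing notes name BWA, MACS 1.4.2 and mm9, without roles. Each deposited list gave a fold enrichment (a ratio over background), a −log10 p-value, a −log10 q-value and a score per peak. Fold enrichment ranked and described peaks. The lists hold no peak below a −log10 p of 5.05, so weaker binding is not seen, and how many reads lie behind them is unknown, which leaves the precision of single values to the spread between replicates. The deposited score was not used. Peak coordinates fitted mm9 (0 peaks past a chromosome end).

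Replicate 1 peaks of which at least 1 bp overlapped a replicate 2 peak were kept, the overlap stated in the study's methods, and classed by their summit against GENCODE M1. A replicate 2 value is that of the peak with the largest overlap. Density is peaks per Mb of sequence outside assembly gaps that satisfies the rule, with exact Poisson 95% intervals, and ratios have exact conditional intervals. Either strand was searched for each string up to 50 bp from the summit and in flanks of equal length 400 bp away, and compared by exact McNemar and Fisher's exact tests with Benjamini-Hochberg adjustment. The rank order behind the strongest peaks is the mean of both replicates' ranks.

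Genes named are the 15 hosts with the most peaks, the 10 densest with at least 5 peaks, the hosts of the 12 strongest peaks and members of 6 gene lists (118 genes). Tfap2a and Tfap2b were matched as Tcfap2a and Tcfap2b, Gpr143 is not on chromosomes 1 to 19, Foxd3 and Mc1r have no admitted intron, and the longest model was used for symbols with several. Not every listed gene is named, and the values of the others are not reported here. The members and lists were chosen with earlier results of these data known. Alternatives were a reciprocal overlap of 50%, the upper 50% by enrichment, a −log10 q of 5 or more, replicate 2 summits, each list on its own, 5 kb from a TSS, coding transcripts only, other intron numbering, GCCNNNGGC and windows of 100 bp. Computations used Python 3.11.15, numpy 2.4.6, pandas 2.3.3, scipy 1.17.1 and matplotlib 3.10.9, and functions were tested on simulated data.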

Additional observations from a re-analysis of the deposited data

How the results depend on the processing

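The excess of TFAP2, AP-1, TEAD and SOX sites at intronic summits over flanks, and the site difference between intronic and TSS peaks, kept their direction and their side of the threshold in every alternative run. The difference between intronic peaks and peaks outside genes did not pass the test in any. The difference between first and later introns, -0.201 points, was positive with a reciprocal overlap of 50% (0.235), replicate 2 summits (0.884), more than 5 kb from a TSS (0.437), coding transcripts only (0.0869), more than 10 kb from a TSS (1.15), windows of 100 bp (1.51) and the full palindrome (2.30, adjusted exact p = 0.032), and 0.207 to 1.34 in the separate lists. The M-box excess passed the threshold with windows of 100 bp (1.10 points), and lay between 0.481 and 0.916 points in the separate lists. The control's excess passed it with replicate 2 summits (0.587 points, adjusted exact p = 0.012), and was 0.433 to 0.577 points in the separate lists. The causes were not tested.

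The intronic share moved by more than the spread between the lists with a reciprocal overlap of 50% (40.0%, 40.0053 before rounding), the upper 50% by enrichment (42.6%), more than 5 kb from a TSS (30.4%), coding transcripts only (42.0%) and no transcript over 2500 kb (39.7%). The ratio of first to later introns was 1.56 with the upper 50%, 1.55 beyond 5 kb, 1.44 beyond 10 kb, 1.74 counting the first intron of any transcript and 1.66 requiring it of every transcript. The ratio of density at 5 to 10 kb over that beyond 100 kb from a TSS moved from 2.82 to 2.57 with the upper 50% and 2.38 with coding transcripts only. The upper 50% gave 11.5% of genes as hosts. The longest over shortest gene ratio of 0.707 became 1.71 with the upper 50%, 1.87 beyond 5 kb and 0.617 with coding transcripts. Median enrichment was 9.08 with the upper 50%, 6.71 at replicate 2 summits and 6.33 beyond 5 kb. In the separate lists the intronic share was 40.06% to 40.1%, the ratio of first to later introns 1.66 to 1.69, the distance ratio 2.64 to 2.88, the share of hosts 19.2% to 21.4%, the length ratio 0.605 to 0.702 and the median enrichment 5.71 to 5.95. No paired analysis was possible because the series compares no conditions between which samples could be paired by replicate number, both ChIP samples being of 1 group.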
